A study of Mus musculus with 3 samples.

Results

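Genes of mitosis and DNA replication were examined in the Agilent arrays on which kidney rudiments without Fgfrl1 were compared with wildtype rudiments. The set held 40 genes chosen by name, 22 of mitosis and 18 of DNA replication, out of 19757 genes tested. All 40 were found on the arrays, with 61 probes. Each of the 3 arrays carried RNA from 1 pool of Fgfrl1-/- rudiments and from 1 pool of wildtype rudiments, both C57BL/6 and both at E12.5. Each pool was made from 6 to 9 rudiments. The Fgfrl1-/- RNA was labelled with Cy3 and the wildtype RNA with Cy5. As there was no dye swap, dye and genotype cannot be told apart. Fgfrl1 is a member of the Fgf receptor family without a tyrosine kinase domain, and the mutant animals lack it in every tissue. In such pools, fewer dividing cells and less RNA per dividing cell cannot be told apart.

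Cells copy their DNA in S phase and divide it in mitosis, and each step has its own wave of transcripts. The replication genes are switched on at the border of G1 and S phase, mainly through E2F factors. The mitotic genes follow in G2 phase and are controlled through CCAAT boxes, bound by NF-Y, and through the cell cycle genes homology region (CHR), bound by the MuvB complex. At this stage the nephron progenitors of the cap mesenchyme, the ureteric bud and the stroma all divide, and Mki67, whose protein is the Ki-67 antigen, and Mcm2 are common labels of cycling cells.

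The promoters showed this division into groups. In RefSeq (GRCm38.p6), a window from 250 bases before to 50 bases after the transcription start was listed for 33 of the 40 genes, 18 mitotic and 15 replication genes. The letters CCAAT occurred on either strand in the windows of 17 of 18 mitotic genes (94.4%), of 9 of 15 replication genes (60%) and in 37.4% of all 32851 windows. The CHR letters (TTTGAA or TTCGAA) were found for 14 of 18 mitotic genes (77.8%) and 2 of 15 replication genes (13.3%), against 19.2% of all windows. The E2F letters were searched as the form TTTGGCG and as each of the related forms with the letters TTTCCCG, with the letters TTTCGCG and with the letters TTTGCCG. At least 1 of them was found for 1 of 18 mitotic genes (5.56%) and 8 of 15 replication genes (53.3%), against 6.7% of all windows. Mcm7 has a pair of windows and was counted where either held the letters. A match is a string of letters and does not show that a factor bound there.

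The 150 bases just before the start are given for 6 genes, as examples beside the ratios that follow. The first 3 genes are mitotic and the others act in replication. Capitals mark the letters of the CCAAT box, the CHR and the E2F site on either strand, so that ATTGG marks a CCAAT box on the opposite strand, TTCAAA likewise a CHR, and CGGGAAA likewise an E2F site.
Ccnb1, chr13:100786487-100786636, minus strand: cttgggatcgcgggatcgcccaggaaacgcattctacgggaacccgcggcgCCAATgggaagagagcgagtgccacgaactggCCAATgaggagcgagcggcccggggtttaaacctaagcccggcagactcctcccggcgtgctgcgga
Cdc20, chr4:118437344-118437493, minus strand: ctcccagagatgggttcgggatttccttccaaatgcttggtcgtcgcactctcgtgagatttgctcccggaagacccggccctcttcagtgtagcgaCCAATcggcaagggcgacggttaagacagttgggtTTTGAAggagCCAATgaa
Kif11, chr19:37376232-37376381, plus strand: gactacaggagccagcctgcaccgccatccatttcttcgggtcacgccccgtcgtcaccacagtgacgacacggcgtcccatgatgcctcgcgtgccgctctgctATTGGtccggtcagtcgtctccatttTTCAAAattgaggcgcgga
Cdc6, chr11:98908001-98908150, plus strand: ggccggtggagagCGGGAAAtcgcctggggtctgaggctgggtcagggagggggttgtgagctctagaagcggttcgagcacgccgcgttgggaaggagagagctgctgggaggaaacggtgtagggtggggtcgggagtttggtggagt
Mcm6, chr1:128359706-128359855, minus strand: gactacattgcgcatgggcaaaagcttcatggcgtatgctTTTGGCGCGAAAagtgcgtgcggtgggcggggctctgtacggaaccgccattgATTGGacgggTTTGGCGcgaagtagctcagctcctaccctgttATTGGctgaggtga
Pcna, chr2:132253181-132253330, minus strand: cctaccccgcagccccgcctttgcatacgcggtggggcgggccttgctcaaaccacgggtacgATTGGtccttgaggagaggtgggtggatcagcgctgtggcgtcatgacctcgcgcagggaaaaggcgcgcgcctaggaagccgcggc
Not every promoter followed its group, since Ccnb1 has no CHR letters and Pcna no E2F letters in the whole window. In the Mcm6 window, the E2F letters on both strands overlap within 1 run of capitals. Mcm6 and Cdc6 both carry E2F letters in these windows, but their ratios on the arrays had opposite signs.

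Of the 40 genes, 35 had a lower mean signal in the Fgfrl1-/- pools, 27 were lower and 2 higher on all 3 arrays, and 5 replication genes, Ccne2, Chek1, Pcna, Gmnn and Cdc6, were down-regulated with an adjusted p below 0.05 (limma, Benjamini-Hochberg over all genes tested). The sizes were small, from 1.30-fold for Cdc6 to 1.68-fold for Ccne2. Among all genes, 48% had a mean below 0, 20.6% were lower and 22.6% higher on all arrays, and 1.7% were called lower. No gene of the set was called higher with limma, against 1.96% of all genes. At an unadjusted p below 0.05, 22 of the 40 genes were lower, against 9.74% of all genes, and 1 was higher, Mcm6, against 11.3%. Dim genes are rarely called, and 13174 genes, the 40 among them, were well above background in both channels on all arrays. Of those 13174, 320 were called lower and 385 higher, and 1784 were lower and 2144 higher at the unadjusted threshold. Ratios are log2 ratios of Fgfrl1-/- over wildtype, errors are SD over the 3 arrays, and a called gene is one with an adjusted p below 0.05.

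**Figure D1:**
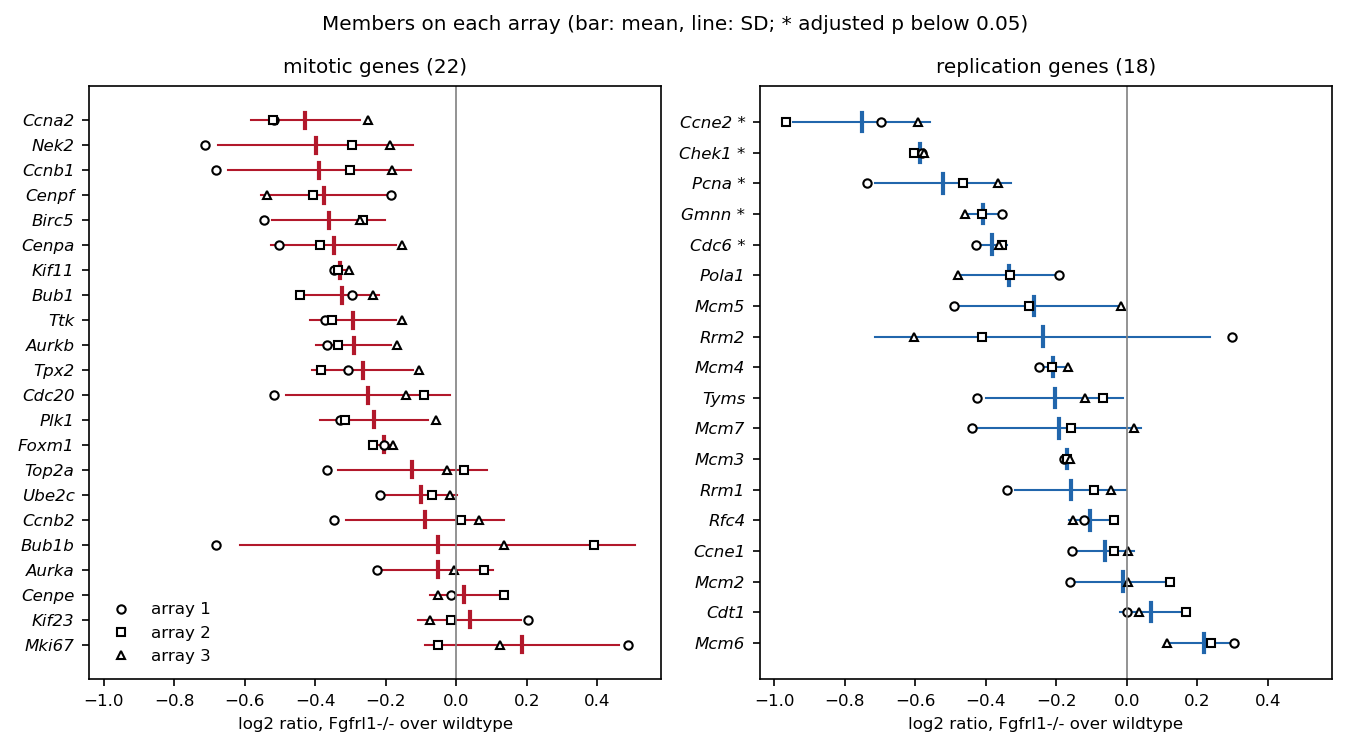
Log2 ratio of Fgfrl1-/- over wildtype (x axis) of the 22 mitotic genes (left) and the 18 replication genes (right) on each array. The thick bar is the mean, the line its SD (n = 3 arrays) and an asterisk an adjusted p below 0.05. Means lay below 0 for 19 mitotic and 16 replication genes, and the 5 genes with an asterisk are the lowest replication genes.

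As a check of the labels, Fgfrl1 itself gave log2 ratios of -1.21, -1.51 and -1.83 on arrays 1, 2 and 3, lower in Fgfrl1-/- on every array (mean -1.52 ± 0.31, adjusted p = 0.011 with limma). Whether its probe lies in the deleted part was not examined. The slide was inferred from the scan identifier in the file headers. By it, arrays 2 and 3 shared a slide, whereas array 1 had its own. Array 1 was also read with another software release. Over all genes the ratios of array 1 correlated with those of arrays 2 and 3 at r = 0.28 and r = 0.32, and those of arrays 2 and 3 with each other at r = 0.77. Over the 40 genes the values were 0.41, 0.25 and 0.80. These are correlations across genes, which are not independent replicates. All 40 genes were well above background in both channels on all arrays, and their median brightness lay at the 89.7th percentile of all genes. No spot was saturated.

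Ccne2 and Chek1 had the largest differences of the 40 genes. Ccne2, which encodes cyclin E2, a partner of Cdk2 at the start of S phase, had log2 ratios of -0.70, -0.97 and -0.59 on arrays 1, 2 and 3. Its mean was -0.75 ± 0.19 with an adjusted p of 0.022 (limma). Its signal in the Fgfrl1-/- pools was 7.73, 8.91 and 8.96 on the log2 scale, and that in the wildtype pools 8.43, 9.88 and 9.55. Ccne2 was lower in the Fgfrl1-/- pool of every array, but both pools of array 1 were dimmer than all others and the groups overlap across arrays. A second probe of Ccne2 gave -0.46 ± 0.41 and was not called (adjusted p = 0.24 over all probes). With the adjustment over all probes, the probes used here stayed below 0.05 for Ccne2 (0.049) and Chek1 (0.043) but not for Pcna (0.088), Gmnn (0.081) and Cdc6 (0.088). With the mean of the probes of each gene, Ccne2 and Cdc6 were no longer called, whereas the mitotic gene Cenpf was called lower. Chek1, the kinase that restrains the cell cycle when forks stall, had ratios of -0.58, -0.60 and -0.58, the smallest spread of the 5 called genes (mean -0.59 ± 0.014, adjusted p = 0.020 with limma). The pools of array 1 were again the dimmest, at 8.88 for Fgfrl1-/- and 9.46 for wildtype. Its second probe was lower by less, at -0.29 ± 0.097. Ccne1, the other cyclin E gene, gave -0.06 ± 0.082 and was not called.

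Pcna encodes the sliding clamp that holds the polymerases on DNA. Its ratios were -0.74, -0.47 and -0.36, with a mean of -0.52 ± 0.19 (adjusted p = 0.048, limma). Its log2 signal was 14.1, 14.4 and 14.4 in the Fgfrl1-/- pools and 14.8, 14.9 and 14.8 in the wildtype pools. All Fgfrl1-/- pools lay below all wildtype pools. Further genes of the fork had negative ratios on every array but were not called, Pola1 (-0.34 ± 0.14), the catalytic subunit of DNA polymerase alpha, and Rfc4 (-0.10 ± 0.061), a subunit of the clamp loader. 

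Licensing of origins was represented by Cdc6, Cdt1 and Gmnn. Cdc6 and Cdt1 load the Mcm2-7 helicase onto origins, and geminin, the product of Gmnn, holds Cdt1 back. Gmnn had ratios of -0.36, -0.41 and -0.46 (mean -0.41 ± 0.052, adjusted p = 0.044 with limma), and Cdc6 -0.43, -0.35 and -0.36 (mean -0.38 ± 0.041, adjusted p = 0.049). The pools of the genotypes did not overlap for either gene. The other probe of Cdc6 gave nearly the same mean with a larger spread, -0.38 ± 0.35. Cdt1 was slightly above 0 on all arrays, at 0.07 ± 0.088.

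**Figure D2:**
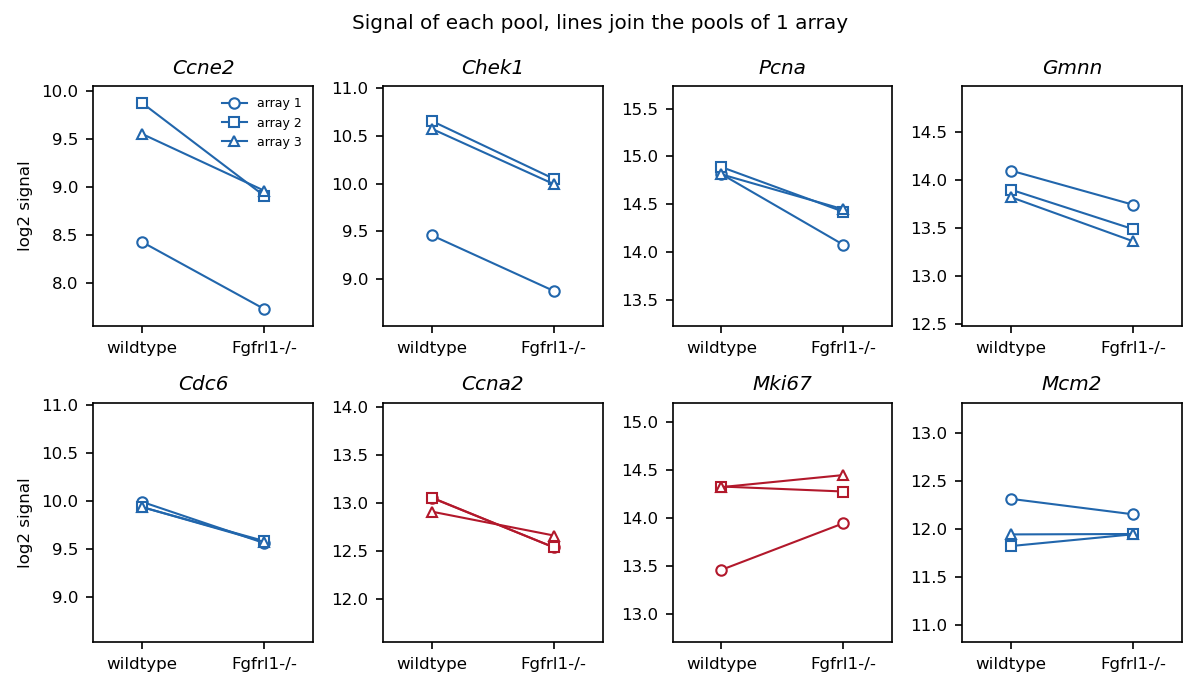
Log2 signal (y axis) of the wildtype and Fgfrl1-/- pools for the 5 called genes and for Ccna2, Mki67 and Mcm2, with replication genes in blue and mitotic genes in red. Each line joins the pools of 1 array. All lines fall for the called genes and Ccna2, whereas those of Mki67 and Mcm2 run in both directions.

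The Mcm2-7 helicase, which unwinds the DNA ahead of the fork, did not move as a block. Mcm2 itself had ratios of -0.16, 0.12 and 0.004 with a mean of -0.01 ± 0.14 (adjusted p = 0.96, limma), and its pools overlapped. Mcm5 (-0.26 ± 0.24), Mcm4 (-0.21 ± 0.041), Mcm7 (-0.19 ± 0.23) and Mcm3 (-0.17 ± 0.0092) had means below 0, while Mcm6 had the highest mean of the replication genes (0.22 ± 0.097, adjusted p = 0.18). Of these 6 subunits, 3 were lower on all arrays and 0 were called, with 3 lower at an unadjusted p below 0.05. Among all genes, 20.6% were lower on all arrays, 1.7% were called lower and 9.74% were lower at that unadjusted threshold. The second probe of Mcm3 lay on the other side of 0 (0.07 ± 0.11). The Fgfrl1-/- pools lay above all wildtype pools for Mcm6, as they did for 8.69% of all genes. Enzymes of nucleotide supply had means of -0.24 ± 0.48 (Rrm2) and -0.16 ± 0.16 (Rrm1) for ribonucleotide reductase and of -0.21 ± 0.19 for thymidylate synthase (Tyms). None of the 3 was called, and Rrm2 was higher on array 1 and lower on the others.

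No mitotic gene was called in the main setting, although 19 of 22 had a mean below 0 and 15 were lower on all arrays. Among all genes, 48% had a mean below 0, 20.6% were lower on all arrays and 1.7% were called lower. The absence of called mitotic genes depended on the setting. Cenpf was called lower with the mean of probes, and Birc5 and Ccna2 with median centring. With Aquantile and scaling between arrays, Birc5, Ccna2 and Kif11 were called lower. The shares of all genes called lower were then 1.66%, 1.54% and 2.79%. In the main setting, 13 mitotic genes were lower and 0 higher at an unadjusted p below 0.05, against 9.74% and 11.3% of all genes. Ccna2, whose cyclin A2 acts in both S phase and mitosis, stood closest to the threshold, with ratios of -0.52, -0.52 and -0.25 (mean -0.43 ± 0.16, adjusted p = 0.058 with limma). Its Fgfrl1-/- pools lay below all its wildtype pools. Ccnb1, the mitotic cyclin B1, had -0.68, -0.30 and -0.18 (mean -0.39 ± 0.26, adjusted p = 0.12), and its other probes gave -0.47 ± 0.33 and -0.30 ± 0.13. The Ccnb1 pools did not overlap either. The other cyclin B gene, Ccnb2, gave -0.09 ± 0.22. Of the remaining regulators, Cdc20, an activator of the anaphase-promoting complex, gave -0.25 ± 0.23, the transcription factor gene Foxm1 -0.21 ± 0.029 and the ubiquitin-conjugating enzyme gene Ube2c -0.10 ± 0.10.

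The mitotic kinases and the spindle checkpoint had means below 0 for all 8 genes, of which 6 were lower on all arrays. The shares of all genes were 48% and 20.6%. Nek2, a kinase of the centrosome, had ratios of -0.71, -0.30 and -0.19 (mean -0.40 ± 0.28, adjusted p = 0.12, limma). Next came Birc5 (-0.36 ± 0.16) and Aurkb (-0.29 ± 0.11) of the chromosomal passenger complex, and the checkpoint kinases Bub1 (-0.32 ± 0.11) and Ttk (-0.29 ± 0.12). Plk1 gave -0.23 ± 0.15. Aurka (-0.05 ± 0.16) and Bub1b (-0.05 ± 0.56) were near 0, and Bub1b had the largest spread of the set, with array 1 below 0 and arrays 2 and 3 above 0.

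Among the proteins of kinetochore, spindle and chromosomes, 5 of 8 had means below 0, against 48% of all genes. Cenpf, a kinetochore protein, had ratios of -0.18, -0.41 and -0.54, here with array 1 nearest to 0 (mean -0.38 ± 0.18, adjusted p = 0.083 with limma). Its Fgfrl1-/- pools lay below all wildtype pools. The centromeric histone gene Cenpa gave -0.35 ± 0.18, the spindle motor gene Kif11 -0.33 ± 0.022, the spindle factor gene Tpx2 -0.27 ± 0.14 and topoisomerase gene Top2a -0.12 ± 0.21. Other probes did not repeat this for Cenpa (0.25 ± 0.26) and Kif11 (-0.005 ± 0.35 and 0.01 ± 0.14). Those probes were dim and not well above background in both channels on all arrays. Mki67 was the mitotic gene with the highest mean. Its ratios were 0.49, -0.05 and 0.13 (mean 0.19 ± 0.27, adjusted p = 0.43), and a second probe gave 0.17 ± 0.28. Array 1 was far above the others for Mki67, and the pools overlapped. The motor genes Cenpe (0.02 ± 0.098) and Kif23 (0.04 ± 0.15) were at 0 with the brightest probe, but their other probes were negative, at -0.21 ± 0.13 and -0.24 ± 0.17 for Cenpe and -0.38 ± 0.24 for Kif23. Thus neither Mki67 nor Mcm2, the usual labels of cycling cells, followed the majority of the set.

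Over the 3 arrays, the difference between mitotic and replication genes was smaller than its spread. The median log2 ratio of the mitotic genes was -0.35, -0.28 and -0.15 on arrays 1, 2 and 3, with a mean of -0.26 ± 0.10. For the replication genes it was -0.29, -0.19 and -0.16, with a mean of -0.21 ± 0.072. The median of all genes was between -0.00016 and 0.0084. The difference between the groups, mitotic minus replication, was -0.05, -0.09 and 0.01 on the arrays, with a mean of -0.04 ± 0.050 and no common sign. It was larger than its spread in some alternatives, at -0.07 ± 0.027 without array 3 and -0.06 ± 0.012 with a single value per slide, each over 2 values, and with the opposite sign at 0.11 ± 0.026 with median centring. On array 1 alone, 35 of the 40 genes were below 0, on arrays 2 and 3 it was 32 each, against 48.3% to 49.99% of all genes. The Fgfrl1-/- pools lay below all wildtype pools for 12 of the 40 genes, 6 of each group, against 8.04% of all genes.

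**Figure D3:**
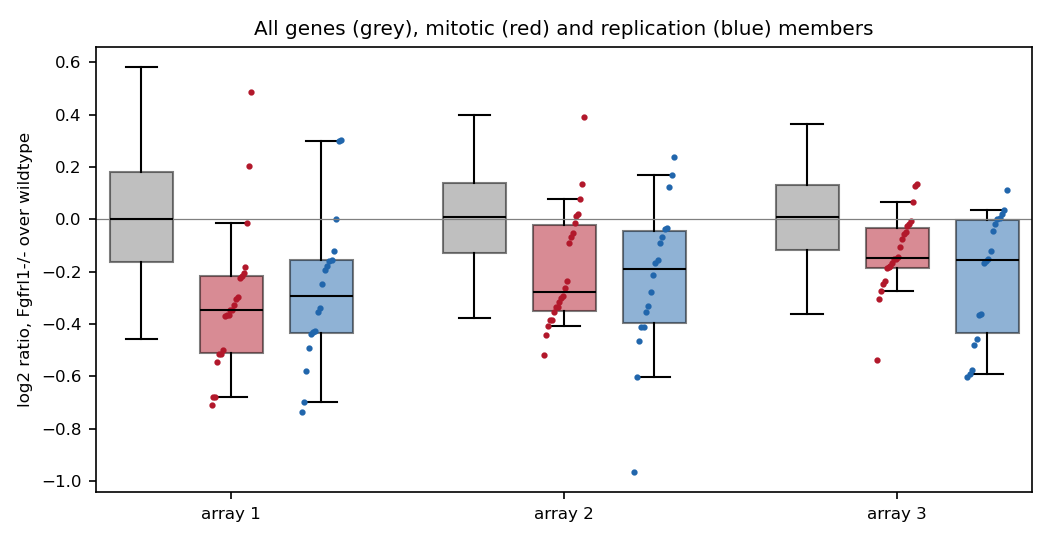
Log2 ratios of Fgfrl1-/- over wildtype on each array for all 19757 genes (grey), the 22 mitotic genes (red) and the 18 replication genes (blue). Boxes give the quartiles and the median, whiskers the 5th and 95th percentiles, and dots single genes. Medians of both groups lie below 0 on all 3 arrays and within 0.09 of each other.

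These genes are bright, and ratios depended on brightness before loess normalization. Of the 40 genes, 32 lay in the brightest 25% of all genes and 8 in the next 25%, and those 8 were all lower on all arrays. In the brightest 25% 25.8% of all genes were lower on all arrays, in the next 25% it was 24.3%. When each array was only centred on its median, the brightest 25% of all genes had a median log2 ratio of -0.35, and the medians of the groups fell to -0.53 for the mitotic and -0.65 for the replication genes. All 40 means then lay below 0, among them those of Mki67 (-0.29) and Mcm6 (-0.31). With loess the median of the brightest 25% was 0.01. The size of the fall therefore depended on the scaling, while the direction of both medians did not.

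**Figure D4:**
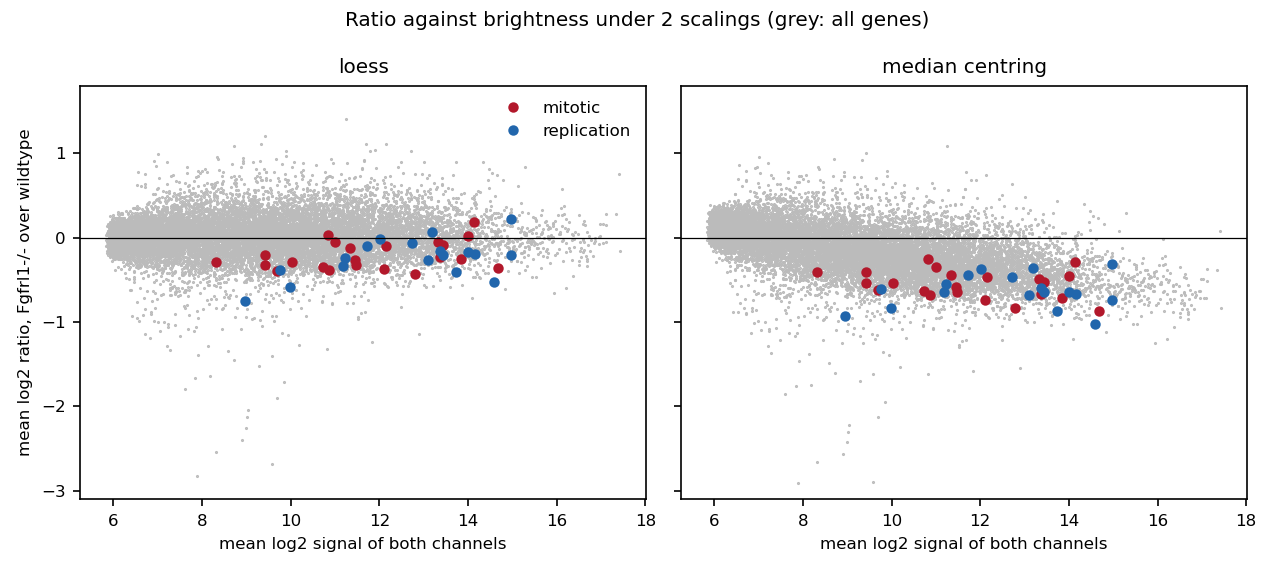
Mean log2 ratio of Fgfrl1-/- over wildtype (y axis) against the mean log2 signal of both channels (x axis) after loess (left) and after median centring (right), with all genes in grey, mitotic genes in red and replication genes in blue. After median centring most bright genes lie below 0, with a median of -0.35 in the brightest 25%, and the 40 genes lie at -0.56 in the median against -0.25 after loess.

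The calls depended on the arrays that were used. Without array 1, 17 of the 40 genes were called lower and Bub1b was called higher (limma), and 11.4% of all genes were then called lower and 12.3% higher. The arrays left in that case are those of the shared slide. Without array 2 and without array 3, 0 of the 40 were called lower, with 14 and 17 lower at an unadjusted p below 0.05. The share of all genes called lower was then 0.192% and 0.0405%. Within the slide of array 1, the medians were those of array 1 given above, and within the slide of arrays 2 and 3 they were -0.21 for the mitotic and -0.17 for the replication genes. The direction of both medians held in each slide. With a single value per slide, 0 of the 40 genes were called and 16 were lower at an unadjusted p below 0.05 (limma). As 0.162% of all genes were called lower in that case, the absence of calls says nothing particular about the 40 genes. The shares of all genes at an unadjusted p below 0.05 are not given for these alternatives, so their unadjusted counts lack a comparison.

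**Figure D5:**
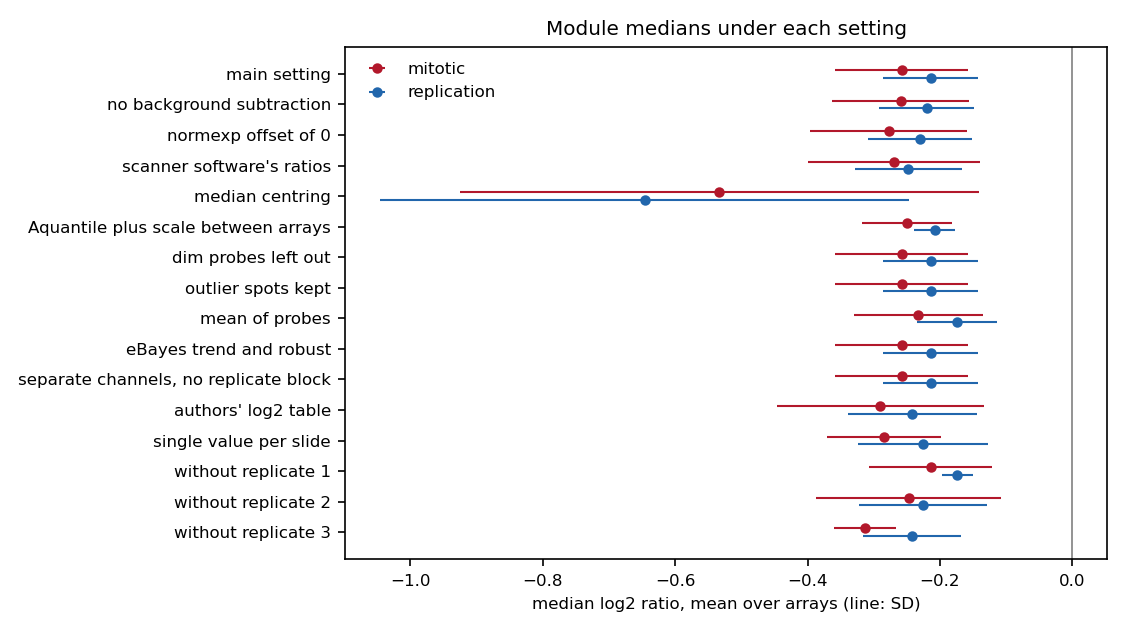
Median log2 ratio of the mitotic (red) and the replication genes (blue), as the mean over arrays with its SD (x axis), under the main setting and each of 15 alternatives (y axis). All medians lie below 0, though some of the alternatives left the medians unchanged. Those after median centring are the lowest, at -0.53 and -0.65.

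Other genes of the same processes were taken from 2 lists. Among 50 further mitotic genes, 42 had a mean below 0, 5 were called lower and 1 higher (limma), with a median of -0.21. Of all genes, 48% had a mean below 0, 1.7% were called lower and 1.96% higher. The largest difference was that of Mad2l1, a protein of the spindle checkpoint, with ratios of -0.99, -0.76 and -0.53 (mean -0.76 ± 0.23, adjusted p = 0.027). The others were Sgo1 (-0.54 ± 0.029), the shugoshin that protects centromeric cohesion, Cdca3 (-0.44 ± 0.10), the kinesin gene Kif18a (-0.42 ± 0.098) and Cep55 (-0.41 ± 0.080), which acts in abscission. Cdc25b, a phosphatase that activates Cdk1 at the entry into mitosis, was the gene called higher, with 0.49, 0.37 and 0.46 (mean 0.44 ± 0.064, adjusted p = 0.040). Ect2 (-0.47 ± 0.17), Nuf2 (0.20 ± 0.17) and Prc1 (0.11 ± 0.076) were not called. Without background subtraction, Mad2l1 and Sgo1 were still called, whereas Cdca3, Kif18a, Cep55 and Cdc25b were not. The shares of all genes called were then 1.19% lower and 1.41% higher.

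Among 53 further replication genes, 43 had a mean below 0, 5 were called lower and 0 higher (limma), with a median of -0.20. At an unadjusted p below 0.05, 3 were higher, against 11.3% of all genes. The other shares of all genes are those given for the mitotic list. Among the called genes were Pole (-0.54 ± 0.22), the catalytic subunit of DNA polymerase epsilon, Exo1 (-0.54 ± 0.070), an exonuclease of repair, and Dscc1 (-0.42 ± 0.056), a part of an alternative clamp loader. Without background subtraction, Exo1 was still called, whereas Pole and Dscc1 were not. Cdc45, a partner of the helicase, had a low mean with a wide spread (-0.48 ± 0.66) and was not called. Highest were the clamp loader gene Rfc2 (0.36 ± 0.079), Orc5 of the origin recognition complex (0.31 ± 0.10) and the polymerase delta gene Pold3 (0.29 ± 0.23), none of them called. Over both lists, 60 of 103 genes were lower on all arrays and 8 higher, against 20.6% and 22.6% of all genes.

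Some markers of the cell types of the rudiment were called too, mainly those of macrophages. For comparison, 1.96% of all genes were called higher and 1.7% lower. Of 8 macrophage markers, 5 were called higher and all 8 had means above 0 (median 0.55), and their summed signal was 3646 to 5276 in the Fgfrl1-/- pools and 2635 to 3109 in the wildtype pools. Of 8 stromal markers, 2 were called higher, Foxd1 (0.90 ± 0.29) and Pdgfra (1.02 ± 0.093), and 7 had means above 0 (median 0.42). Their summed signal was 137894 to 151619 against 88264 to 108815. Of 8 markers of the cap mesenchyme, 1 was called lower, Cited1 (-0.78 ± 0.19). Means lay below 0 for 7, and the median of the gene means was -0.11. The medians of the other marker lists are also taken over gene means. Taken per array and then averaged, as for the mitotic and replication genes, the cap mesenchyme median was -0.20 ± 0.12. The sum was 16302 to 17620 against 20692 to 21408. For the ureteric bud, 1 of 8 was called higher (Wnt9b) and 1 lower (Wnt11). Means lay above 0 for 5 and below 0 for 3 (median 0.35), with sums of 23893 to 31016 against 21146 to 22236. Of 9 erythroid markers tested out of 10 listed and 8 endothelial markers, 0 were called with limma. Means lay below 0 for 7 erythroid and 5 endothelial markers. At an unadjusted p below 0.05, 2 and 1 were lower, against 9.74% of all genes. The sums were 106090 to 111457 against 117418 to 121075 for the erythroid list, and 11412 to 14756 against 12944 to 15114 for the endothelial list. All markers tested, other than 2 of the erythroid list and 1 of the ureteric bud list, were well above background in both channels on all arrays. These sums add probes of unlike efficiency and show a direction only. The part of these shifts in the lower signal of the mitotic and replication genes was not tested.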

How the data were processed

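Per the labels, total RNA of pooled rudiments (600 ng per sample) was made into Cy3-labelled Fgfrl1-/- and Cy5-labelled wildtype cRNA and read with Agilent Feature Extraction (version 10 per the submitters' processing notes). Per the file headers, array 1 was read with release 9.5.3.1 and the others with 10.5.1.1. The authors deposited raw median and background intensities, processed intensities, a log10 ratio of wildtype over Fgfrl1-/- and, in a separate table, log2 ratios per probe, whose steps are not given in the sources used here. A comparison with the scanner ratios gave its direction, which is Fgfrl1-/- over wildtype. Its column medians were -0.018, 0.000 and 0.003. 

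Median intensities were corrected with normexp (offset 50) and normalized by loess in limma 3.58.1 (R 4.3.3), without weight on 1639 control spots. Flagged outlier spots (107 to 138 per array) were dropped and spots of a probe were averaged. Of 41174 probes, 33115 were named through RefSeq, by accession or symbol, which gave 19757 genes. Each gene was represented by its brightest probe, whatever its background. An intercept was fitted per gene (lmFit and eBayes), which pairs the pools of an array, with Benjamini-Hochberg adjustment over all genes and a threshold of 0.05. Signals per pool came from loess followed by Aquantile. Summed signals of marker lists are sums of these on the linear scale. Brightness is the mean log2 signal of both channels. Of these steps, the intercept fit was tested on simulated data, with shifts larger than those of the called genes of the set. The labels number the arrays but do not say how the pools differ. The paper on these data reports 3 separate RNA preparations of each genotype, from pooled rudiments. The p-values measure the spread between these 3 arrays, whose number limits the precision.

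The set, the groups and the other lists were chosen with earlier results of these data known. The set is given with a mean and SD for every gene, and per array for Mki67, Mcm2, every called gene and the 4 largest differences per group. From the other mitotic and replication lists the called genes and the 3 highest and 3 lowest were named, except for some called genes that are not reported here. The markers named from the cell type lists are the called ones outside the macrophage list and were chosen after their values were seen, as was the split by brightness. The alternatives are given in the closing section.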

Additional observations from a re-analysis of the deposited data

How the results depend on the processing

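The direction of both medians held under all 15 alternatives, and that of each gene for 31 of the 40 genes. Not all alternatives could change the medians. They stayed at -0.26 and -0.21 without dim probes, with outlier spots kept, with a trend and robust eBayes, and with the channels fitted separately. With 1 array left out, the sign of the medians was fixed, since both were below 0 on every array. The number of genes called lower was 5 in the report, where 1.7% of all genes were called lower, and the share of all genes moved with it. It was 2 without background subtraction (1.19% of all genes), 0 with a normexp offset of 0 and 0 with the scanner software's ratios, 8 with Aquantile and scaling between arrays (2.79%), 2 without dim probes (1.9%), 2 with the authors' log2 table (0.795%), 0 with a single value per slide (0.162%), and between 0 and 17 with 1 array left out (0.0405% to 11.4%). With an offset of 0 and with the scanner's ratios no gene of the whole array was called, and 15 and 17 of the 40 genes were lower at an unadjusted p below 0.05. The share of all genes at that unadjusted threshold is not given for either. The number called higher was between 0 and 1 with 1 array left out. With the channels fitted separately, without the array as a replicate block, 4 genes were called, Ccna2, Cdc6, Gmnn and Pcna, 3 of them shared with the 5. The share of all genes called lower was then 1.84%. Median centring gave medians of -0.53 (mitotic) and -0.65 (replication) and a difference of 0.11.

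Signs turned for single genes. With median centring Mki67 (-0.29), Prc1 (-0.26), Nuf2 (-0.11), Pold3 (-0.0444), Rfc2 (-0.0888), Cenpe (-0.45), Kif23 (-0.25), Mcm6 (-0.31) and Cdt1 (-0.36) became negative. With the scanner's ratios Prc1 (-0.0273), Nuf2 (-0.0325), Kif23 (-0.20) and Cdt1 (-0.0399) became negative and Bub1b positive (0.0577). With Aquantile Mcm2 (0.000567) and Bub1b (0.00244) became positive. With the mean of probes Pold3 (-0.0382), Cenpe (-0.14) and Kif23 (-0.17) became negative. With 1 array left out, Mcm2 ranged from -0.0784 to 0.0634, Ccnb2 from -0.167 to 0.0389, Aurka from -0.115 to 0.0355, Bub1b from -0.273 to 0.263, Kif23 from -0.0440 to 0.0945 and Cenpe from -0.0332 to 0.0594. The causes were not tested. The slide as a random block was not fitted, as 1 of the slides holds 1 array.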
